A study of Mus musculus with 6 samples.

Results

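The 37 genes described here are immediate early and mRNA-decay response genes, chosen by symbol from known families: AP-1 and EGR factors, KLF factors and Myc, NR4A receptors, DUSP phosphatases, ZFP36 and BTG decay proteins, GADD45 proteins, and the IER genes with Rhob and Arc. All 37 were found among the 21958 genes of the deposited table, each had reads in every library, and all 37 were among the 12800 genes tested. RNA came from whole tumors formed by MC38 colon cancer cells under the flank skin of male wild-type C57BL/6J mice. Tumors of the vehicle group were injected with 50 µL saline every 3 days. Those of the Mn-N/C group, a nanozyme of single manganese atoms on a nitrogen-doped carbon, received 70 mg/kg in the same volume. By the methods for the tumor model as a whole, which also give the doses, tumors were taken at 800 to 1000 mm3. No number of injections, time or volume is given for the sequenced tumors, so whether the groups differed in tumor age is not known. Each group had 3 libraries, with 14988588 to 18961134 counted reads. Neither the labels nor the methods say whether each library came from its own mouse, so the p-values cover only how far these samples vary, which may be technical. Whole tumors mix cancer and host cells, so fewer cells of a type and less RNA per cell cannot be told apart.

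Immediate early genes are switched on by growth factors, stress or injury within minutes, without new protein synthesis, through ERK, p38 and JNK kinases that act on SRF, ELK and CREB factors at their promoters. Their products are themselves transcription factors, phosphatases that turn the kinases off, and proteins that shorten the life of short-lived mRNAs. ZFP36 proteins bind AU-rich elements in 3' UTRs and recruit the CCR4-NOT deadenylase, and BTG proteins bind the same deadenylase. In tumor pieces these genes are known to respond to oncogenic RAS-RAF signaling, to hypoxia and inflammation, and also to tissue handling.

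Levels per length spanned almost the whole range of expressed genes. By mean FPKM (reads scaled by gene length and library total, averaged over all 6 libraries) Rhob, a small GTPase of endosomes, was highest at 155, above 98.2% of tested genes. Klf4 (119), Jun (112), Myc (102) and Zfp36l2 (99.9) followed. Of the 37 genes, 24 had a mean above 10 FPKM and 11 above 50 FPKM, where the median of all tested genes was 6.51 FPKM. At the low end 9 genes had a mean below 5 FPKM, among them Dusp1 (4.41 FPKM), Egr2 (2.64 FPKM), Fos (2.61 FPKM), Fosb (1.3 FPKM) and Nr4a3 (0.385 FPKM). Within families the levels were far apart. Among AP-1 genes Jun ranged from 99.7 to 129 FPKM over the libraries and Fos from 1.83 to 3.38 FPKM, and among EGR genes Egr3 ranged from 15.4 to 17.7 FPKM and Egr2 from 2.24 to 3.26 FPKM. Egr3 and Egr1 (10.6 to 22.1 FPKM) overlapped in their libraries.

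**Figure D1:**
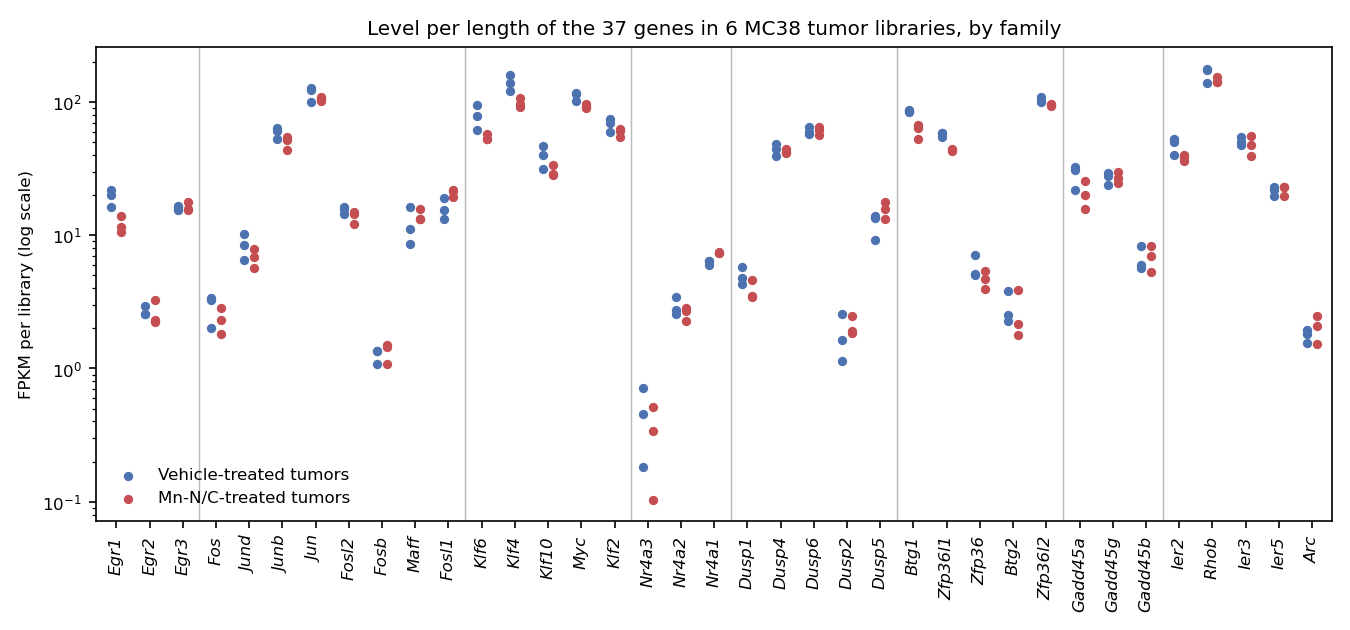
FPKM of each of the 37 genes (log scale) in each library, blue for vehicle- and red for Mn-N/C-treated tumors, grouped by family with gray lines between families. Rhob, Klf4, Jun and Myc had means above 100 FPKM, and Nr4a3 was the only gene with a mean below 1 FPKM.

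For the comparison of Mn-N/C- with vehicle-treated tumors, edgeR's quasi-likelihood test was run on the counts of all 12800 genes, and levels within a gene are given as CPM (reads scaled to a common library size by TMM), in order of replicate number. A positive log2 fold change means a higher level after Mn-N/C. No gene of the table passed a Benjamini-Hochberg adjusted p of 0.05 (0 of 12800, 0%), and so none of the 37 did. At an unadjusted p under 0.05, 10 of the 37 genes (27.0%) differed, against 21% of all tested genes. Of these, 8 were lower in Mn-N/C-treated tumors (21.6%, with 11.1% of all tested genes lower) and 2 higher (5.41%, with 9.82% higher). Over the whole group 25 genes had a lower and 12 a higher mean. The median log2 fold change was -0.13, where the median over all tested genes was 0.00080 and 49.8% of them had a lower mean. In 10 genes (27.0%) the libraries of the groups did not overlap, 8 lower and 2 higher, where the share over all tested genes was 26.4% (12.1% lower, 14.2% higher). The share that differed in either direction was therefore close to that of all genes, while the share that was lower was above it. The 37 genes were chosen with earlier results of these data known, so the comparison with all genes is not independent. DESeq2, another count test, gave 33 of the genes an adjusted p and called 5 of them lower (15.2%) and none higher, against 6.83% of all genes called in either direction (4.1% lower, 2.73% higher). These 5 were Zfp36l1, Egr1, Btg1, Klf4 and Klf6.

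**Figure D2:**
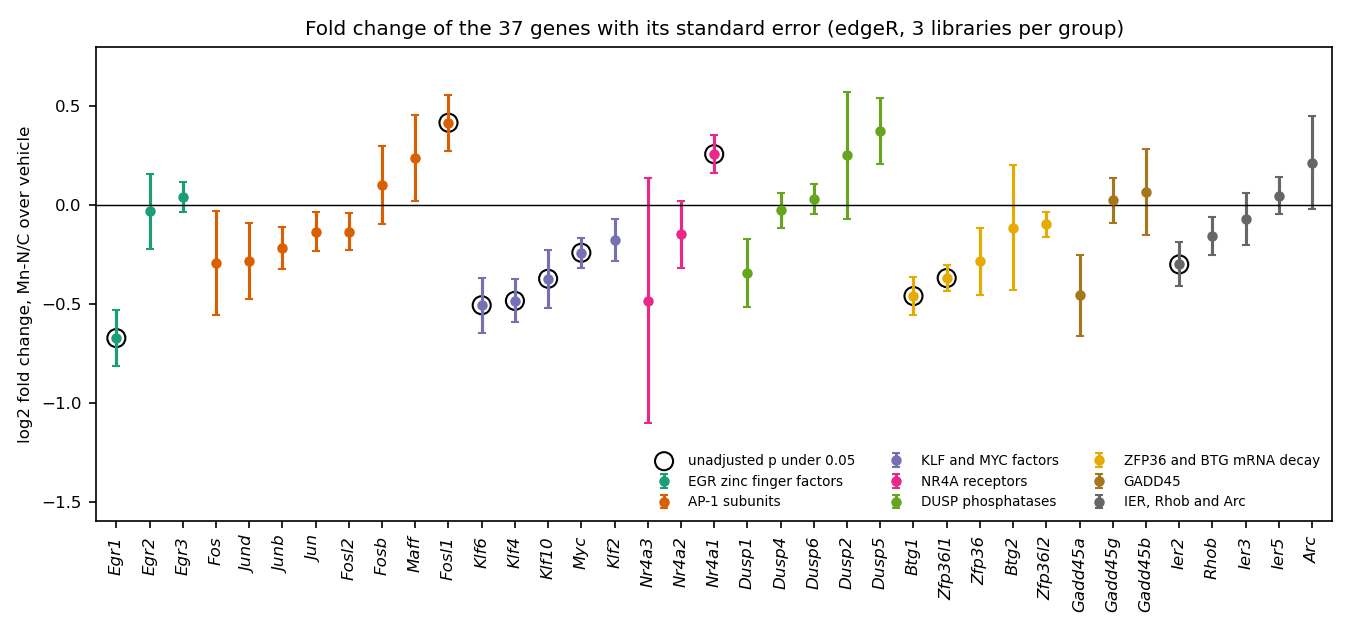
Log2 fold change of each gene in Mn-N/C- over vehicle-treated tumors with its standard error from edgeR, colored by family, with circles around the 10 genes at an unadjusted p under 0.05. All 5 KLF and MYC genes and all 5 ZFP36 and BTG genes lie below 0, and no gene passed after adjustment over all genes.

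Vehicle replicate 2 was the lowest vehicle library in 21 of the 37 genes (56.8%), against 36% of all tested genes. Over all tested genes, vehicle replicates 1 and 2 differed least among the vehicle pairs. Their chi-square per degree of freedom was 12.1, against 17.0 for vehicle replicates 1 and 3 and 26.7 for 2 and 3. Vehicle replicate 1 was the highest of all 6 libraries in 10 genes (27.0%, against 10.5% of all genes) and vehicle replicate 3 in 13 (35.1%, against 30.4%). The median deviation of the 37 genes from their mean over the libraries was 0.15, -0.01 and 0.11 on the log2 scale across the vehicle libraries, against -0.0018, -0.078 and -0.096 across those given Mn-N/C. Without vehicle replicate 2, edgeR called 583 of 13060 genes (4.46%) and 6 of the 37: Klf6, Egr1, Zfp36l1, Klf4 and Ier2 lower and Fosl1 higher. All 6 shared an adjusted p of 0.0495, just under the threshold, while Klf10 was at 0.0525 and Btg1 at 0.0554 in that fit. In the other 5 fits that each left out 1 library, edgeR called 0 genes. At an unadjusted p under 0.05, 12 of the 37 were lower and 4 higher without vehicle replicate 2, where 14.3% of all genes were lower and 14.8% higher. Without Mn-N/C replicate 2 these counts were 5 lower and 2 higher, where 8.38% of all genes were lower and 6.88% higher. The 37 genes were GC-rich, with a median GC content of 54.6% against 49.8% for all tested genes, and short, with a median length of 3049 against 4521.5 bases. With each library's trend of counts on GC content removed, the median log2 fold change was -0.20, and 12 genes were lower and 1 higher at an unadjusted p under 0.05, where 5.71% of all genes were lower and 10.2% higher.

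**Figure D3:**
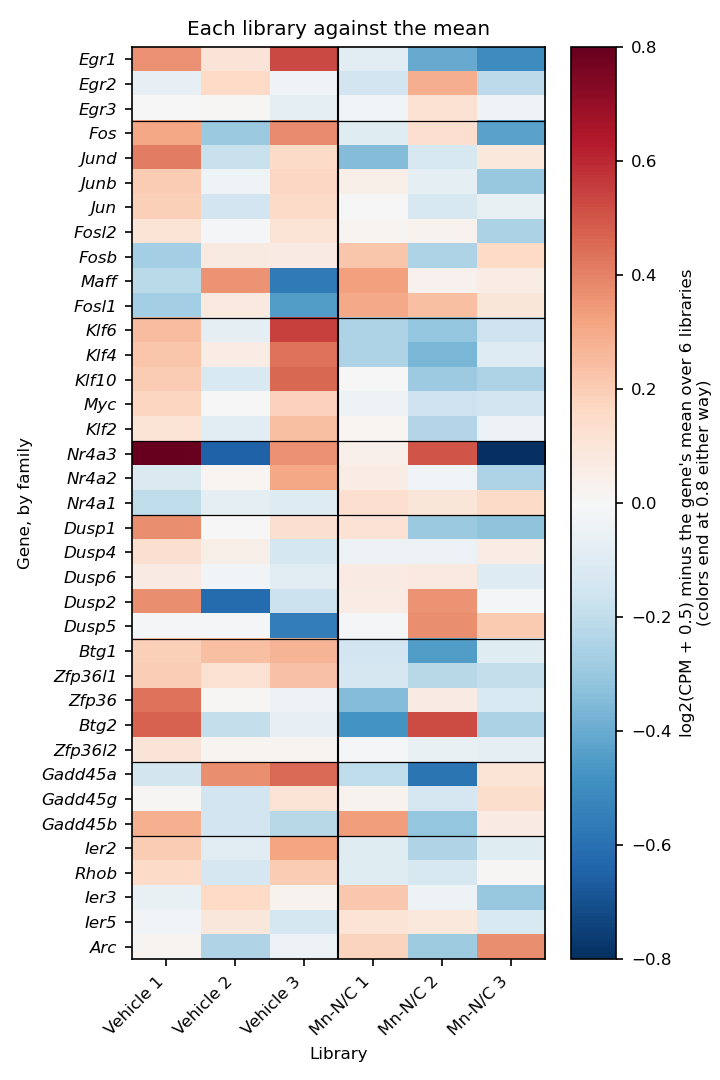
Log2(CPM + 0.5) of each gene in each library minus the gene's mean over the 6 libraries (red above, blue below, families separated by lines). Klf6, Klf4, Egr1 and Ier2 are red in vehicle replicates 1 and 3 and blue in all Mn-N/C libraries, while Fosl1 and Maff are blue in vehicle replicates 1 and 3.

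EGR genes encode zinc finger activators of the early response. Egr1 (chromosome 18), the most quickly induced of them, had 88.3, 73.3 and 98.9 CPM across the vehicle libraries, against 64.1, 51.5 and 48.0 CPM across those given Mn-N/C. Every Mn-N/C library lay below every vehicle library. The means were 86.9 ± 12.9 and 54.5 ± 8.45 CPM (SD, n = 3), which gave a log2 fold change of -0.67 (standard error 0.141, unadjusted p = 0.00128, adjusted p = 0.182 from edgeR), or 37.3% lower, the most negative value of the 37 genes. DESeq2 gave an adjusted p of 0.00361, and over the 17 alternative analyses the adjusted p lay between 0.00361 and 0.452. Egr3 was at 71.6, 71.7 and 67.7 CPM across the vehicle libraries, against 70.1, 77.5 and 69.7 CPM across those given Mn-N/C. The Egr3 groups overlapped, with a log2 fold change of 0.04 (standard error 0.0767). Egr2, a factor of myelinating and myeloid cells, was at 9.09 ± 0.834 and 8.88 ± 1.86 CPM in vehicle- and Mn-N/C-treated tumors. Whether Egr1 differed from the other EGR genes in its response was not tested.

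The mean of all 5 KLF and MYC genes was lower after Mn-N/C, and 4 of them had an unadjusted p under 0.05, where 49.8% of all tested genes had a lower mean and 11.1% were lower at that p. KLF proteins are zinc finger factors of differentiation and quiescence, and Myc drives growth and ribosome synthesis. Klf4, a factor of epithelial differentiation and of macrophages, had 417, 373 and 484 CPM across the vehicle libraries, against 301, 277 and 332 CPM across those given Mn-N/C. The groups did not overlap, with a log2 fold change of -0.48 (standard error 0.109, unadjusted p = 0.00205, adjusted p = 0.182 from edgeR) and a 28.5% lower level. Klf6, induced by injury in many cell types, had 338, 271 and 416 CPM across the vehicle libraries, against 239, 229 and 253 CPM across those given Mn-N/C. Every Mn-N/C library was lower, but vehicle replicate 2 was nearer to them than to vehicle replicate 3. Its log2 fold change was -0.51 (standard error 0.14, unadjusted p = 0.00654, adjusted p = 0.182 from edgeR) and was -0.25 with the GC trend removed (GC content 42.4%). DESeq2 gave adjusted p-values of 0.00615 for Klf4 and 0.0179 for Klf6. Over the 17 alternatives they lay between 0.00615 and 0.452 for Klf4 and between 0.0179 and 0.452 for Klf6.

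Myc was at 312, 277 and 314 CPM across the vehicle libraries, against 269, 247 and 249 CPM across those given Mn-N/C. The groups did not overlap, and the log2 fold change was small at -0.24 (standard error 0.0763, unadjusted p = 0.013, adjusted p = 0.182 from edgeR). Klf10, induced by TGF-beta, had 165, 132 and 197 CPM across the vehicle libraries, against 143, 117 and 121 CPM across those given Mn-N/C. Vehicle replicate 2 lay inside the Mn-N/C range, with a log2 fold change of -0.37 (standard error 0.146, unadjusted p = 0.0329, adjusted p = 0.21 from edgeR). Klf10 was at -0.22 without vehicle replicate 3 (unadjusted p = 0.105 from edgeR), and its unadjusted p was also above 0.05 without vehicle replicate 1, Mn-N/C replicate 2 or Mn-N/C replicate 3 (0.0706, 0.0849 and 0.0912 in edgeR) and with the GC trend removed (0.0513). Klf2, a factor of quiescent endothelial cells and T cells, was at 126 ± 14.4 and 111 ± 9.98 CPM in vehicle- and Mn-N/C-treated tumors, with an unadjusted p = 0.131 in edgeR.

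The mRNA-decay genes also had a lower mean in all 5 cases, and 3 of them did not overlap between the groups, where 12.1% of all tested genes were lower without overlap. Zfp36l1, which encodes an AU-rich element binding protein that limits cyclin and cytokine mRNAs, had 173, 164 and 177 CPM across the vehicle libraries, against 137, 129 and 132 CPM across those given Mn-N/C. The spread within each group was small beside the gap between them. The means were 171 ± 6.61 and 133 ± 3.99 CPM (SD, n = 3), which gave a log2 fold change of -0.37 (standard error 0.0674, unadjusted p = 0.000533, adjusted p = 0.182 from edgeR), or 22.6% lower, with the smallest p of the 37 genes. DESeq2 gave an adjusted p of 0.00299, and over the 17 alternatives it lay between 0.00299 and 0.452. Btg1, an antiproliferative partner of the deadenylase, had 435, 451 and 461 CPM across the vehicle libraries, against 343, 279.7 and 357 CPM across those given Mn-N/C. These groups did not overlap either, with a log2 fold change of -0.46 (standard error 0.0969, unadjusted p = 0.00134, adjusted p = 0.182 from edgeR). Its adjusted p lay between 0.00536, from DESeq2, and 0.452 over the 17 alternatives, and its log2 fold change was -0.25 with the GC trend removed (GC content 43.1%, unadjusted p = 0.0519 from edgeR).

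Zfp36l2, the relative with the highest level per length, was at 378, 358 and 358 CPM across the vehicle libraries, against 351, 338 and 334 CPM across those given Mn-N/C. Its groups did not overlap, yet the difference was 6.51% (log2 fold change -0.10, standard error 0.0632, unadjusted p = 0.161 from edgeR). That value was -0.06 without vehicle replicate 1 and -0.18 with the GC trend removed. Zfp36, which encodes tristetraprolin, the founding member, was at 19.8 ± 3.83 and 16.3 ± 2.34 CPM in vehicle- and Mn-N/C-treated tumors. Btg2, a p53-induced relative of Btg1, was at 7.77 ± 2.13 and 7.18 ± 2.96 CPM, and both groups overlapped.

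**Figure D4:**
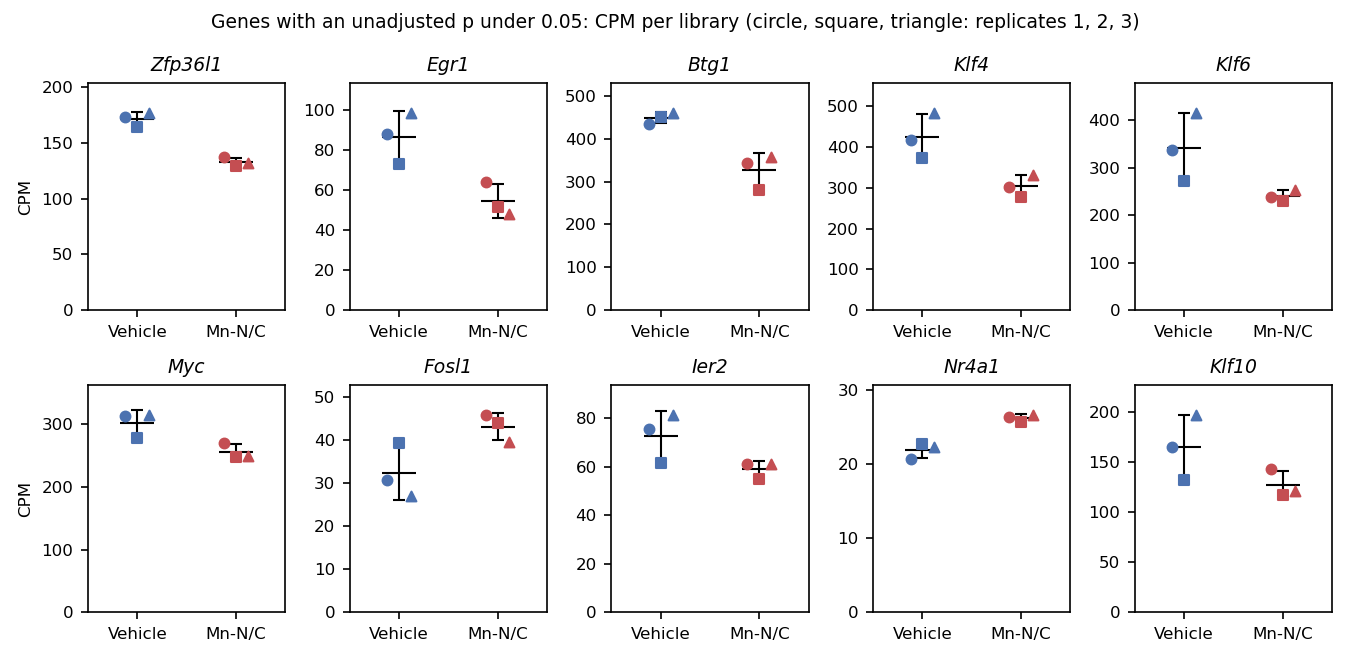
CPM in each library for the 10 genes at an unadjusted p under 0.05, ordered by p, with vehicle-treated tumors in blue and Mn-N/C-treated tumors in red, and bars for mean and SD (n = 3). Of the 10, Fosl1 and Nr4a1 are higher in the Mn-N/C group, and Klf10 is the only one whose groups overlap.

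AP-1 genes, whose products pair as FOS-JUN or MAF dimers, went both ways, with 5 lower and 3 higher means. Fosl1, which encodes FRA1, an AP-1 subunit of invasive carcinoma cells kept up by ERK signaling, had 30.6, 39.2 and 27.0 CPM across the vehicle libraries, against 45.8, 43.9 and 39.6 CPM across those given Mn-N/C. Every Mn-N/C library was above every vehicle library, though vehicle replicate 2 was nearly level with Mn-N/C replicate 3. Its log2 fold change of 0.42 (standard error 0.141, unadjusted p = 0.0174, adjusted p = 0.185 from edgeR), or 33.5% higher, was the largest positive value of the 37 genes. Its adjusted p lay between 0.0495, without vehicle replicate 2, and 0.452 over the 17 alternatives. Without vehicle replicate 1 or Mn-N/C replicate 1 the unadjusted p of Fosl1 was above 0.05 (0.0585 and 0.0628 in edgeR). Junb had 144, 122 and 139.8 CPM across the vehicle libraries, against 129, 118 and 101 CPM across those given Mn-N/C, which overlapped (log2 fold change -0.22, standard error 0.108, unadjusted p = 0.0771 from edgeR). Its log2 fold change was -0.13 without Mn-N/C replicate 3 and -0.34 with the GC trend removed. Jun was at 372 ± 46.4 and 339 ± 14.9 CPM in vehicle- and Mn-N/C-treated tumors, Jund at 13.9 ± 2.94 and 11.5 ± 1.76 CPM and Fosl2 at 149 ± 7.01 and 136 ± 14.9 CPM. Fos itself was at 6.75 ± 1.72 and 5.51 ± 1.14 CPM and Fosb at 7.85 ± 1.1 and 8.42 ± 1.49 CPM. Maff, a small MAF protein that lacks an activation domain, was at 31.2 ± 10.5 and 36.8 ± 4.38 CPM, with its highest value in vehicle replicate 2 (42.7 CPM) and its lowest in vehicle replicate 3 (22.3 CPM).

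NR4A genes encode orphan nuclear receptors that need no hormone to act. Nr4a1 (NUR77) had 20.8, 22.8 and 22.3 CPM across the vehicle libraries, against 26.4, 25.7 and 26.7 CPM across those given Mn-N/C. The groups did not overlap and varied little, with a log2 fold change of 0.26 (standard error 0.097, unadjusted p = 0.0282, adjusted p = 0.203 from edgeR), or 19.6% higher. With the GC trend removed its log2 fold change was 0.16 (unadjusted p = 0.174 from edgeR). The unadjusted p of Nr4a1 was also above 0.05 without vehicle replicate 1, Mn-N/C replicate 1 or Mn-N/C replicate 3 (0.0892, 0.0695 and 0.0811 in edgeR). Nr4a2 was at 10.3, 11.3 and 14.0 CPM across the vehicle libraries, against 11.7, 11.0 and 9.33 CPM across those given Mn-N/C, which overlapped. Nr4a3 had the fewest reads of the 37 genes, with 11 in its lowest library, and its log2 fold change of -0.48 had a standard error of 0.619.

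DUSP phosphatases remove phosphate from MAP kinases and so close the loop from kinase to gene. Dusp6 and Dusp4, which act on ERK, were near 0 in log2 fold change, at 0.03 (standard error 0.078) and -0.03 (0.0868). Levels in vehicle- and Mn-N/C-treated tumors were 188 ± 9.72 and 192 ± 13.2 CPM for Dusp6 and 120.2 ± 11.3 and 118 ± 5.07 CPM for Dusp4. ERK activity was not measured. Dusp5, a nuclear phosphatase of ERK, had 33.6, 33.6 and 22.9 CPM across the vehicle libraries, against 33.5, 44.0 and 39.2 CPM across those given Mn-N/C. Its groups overlapped, with a log2 fold change of 0.37 (standard error 0.167, unadjusted p = 0.0551, adjusted p = 0.247 from edgeR) that was 0.21 without vehicle replicate 3 and 0.24 under limma-voom with quality weights. Dusp1, which acts on p38 and JNK and is induced by stress, had 18.8, 14.4 and 15.8 CPM across the vehicle libraries, against 15.6, 11.6 and 11.4 CPM across those given Mn-N/C. It also overlapped, with a log2 fold change of -0.34 (standard error 0.171, unadjusted p = 0.0779 from edgeR) that was -0.22 without vehicle replicate 1. Dusp2, a phosphatase of activated immune cells, was at 3.51 ± 1.38 and 4.19 ± 0.654 CPM.

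GADD45 proteins link DNA damage and stress to p38 signaling and DNA repair. Gadd45a, a p53 target, had 37.9, 54.5 and 57.8 CPM across the vehicle libraries, against 36.4, 27.8 and 45.3 CPM across those given Mn-N/C. Vehicle replicate 1 lay inside the Mn-N/C range, and the log2 fold change was -0.46 (standard error 0.205, unadjusted p = 0.0557, adjusted p = 0.248 from edgeR), which was -0.29 without Mn-N/C replicate 2 and -0.18 under limma-voom with quality weights. Gadd45b had 13.0, 9.49 and 8.99 CPM across the vehicle libraries, against 13.5, 8.45 and 11.1 CPM across those given Mn-N/C. Gadd45g was at 31.5 ± 2.93 and 32.0 ± 3.14 CPM in vehicle- and Mn-N/C-treated tumors, and both these genes overlapped between the groups.

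Among the IER genes, Rhob and Arc, Ier2 was the only one at an unadjusted p under 0.05. Ier2, a small nuclear protein of the early response, had 75.3, 61.4 and 81.3 CPM across the vehicle libraries, against 60.9, 55.1 and 61.1 CPM across those given Mn-N/C. The groups were apart by the small gap between vehicle replicate 2 and Mn-N/C replicate 3, with a log2 fold change of -0.30 (standard error 0.111, unadjusted p = 0.0268, adjusted p = 0.2 from edgeR). The unadjusted p of Ier2 was above 0.05 without vehicle replicate 1, vehicle replicate 3 or Mn-N/C replicate 2 (0.0795, 0.0762 and 0.085 in edgeR). Rhob had 404, 331 and 419 CPM across the vehicle libraries, against 339, 332 and 365 CPM across those given Mn-N/C, with vehicle replicate 2 the lowest library of all (log2 fold change -0.16, standard error 0.098, unadjusted p = 0.148 from edgeR). The Rhob value was -0.24 without vehicle replicate 2, -0.09 without vehicle replicate 3 and -0.25 with the GC trend removed. Ier3, an inhibitor of apoptosis, was at 57.2 ± 4.41 and 54.4 ± 9.76 CPM in vehicle- and Mn-N/C-treated tumors, Ier5 at 69.9 ± 5.55 and 72.3 ± 6.27 CPM, and Arc, a regulator of synapses, at 5.38 ± 0.548 and 6.26 ± 1.51 CPM.

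Many of these mRNAs carry the AU-rich elements that ZFP36 proteins bind, including those of the ZFP36 genes themselves. The heptamer TATTTAT (transcript strand only, overlaps counted) stood in the annotated 3' UTR of 20 of the 37 genes (54.1%), against 28.0% of 12571 tested genes, and 10 (27.0%) held 2 or more, against 9.54%. The median 3' UTR was 1189 bases long for the 37 genes and 990.0 for all. The stretches below come from GENCODE M21 transcripts, with the heptamer in capitals. Zfp36l1, Klf6, Klf10 and Fosl1 are shown as the genes with a heptamer at an unadjusted p under 0.05 in edgeR. Zfp36, Ier3 and Fos are shown as textbook cases.
Zfp36l1: tcaaaacgTATTTATtgccaaactatgctt
Klf6: acgtctctTATTTATgccttgaggactatt
Klf10: tgtcttttTATTTATaggagtttttcagga
Fosl1: gcagctgcTATTTATtttcctaaagagact
Zfp36: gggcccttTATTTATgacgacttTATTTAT
Ier3: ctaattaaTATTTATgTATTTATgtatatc
Fos: tttcaattTATTTATtaagatggattctca
Zfp36l1, Zfp36 and Zfp36l2 each held 3 such heptamers, Ier3 held 4, and Klf6 and Fos 2. Egr1, Klf4, Btg1, Myc and Ier2, which were lower at an unadjusted p under 0.05, held none, though Btg1 held 11 copies of the pentamer ATTTA. Fosl1, the gene with the largest positive value, held 1.

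Fold changes were lower in classes with more heptamers, among the 37 genes and among all genes. Of the 37, the 17 genes without a heptamer had a median log2 fold change of -0.03, the 10 with 1 had -0.14, and the 10 with 2 or more had -0.29, with 9 of these 10 at a lower mean. Over all tested genes with a 3' UTR, the medians were 0.03 in 9047 genes without, -0.05 in 2325 genes with 1 and -0.14 in 1199 genes with 2 or more, of which 69.2% had a lower mean. The median 3' UTR length also differed between these classes, at 723, 1698 and 2662 bases over all genes and 1111, 985 and 1521.5 bases for the 37 genes, and the part of length or base composition was not tested. By unadjusted p, 5 of the 17 genes without a heptamer were lower, 1 of the 10 with 1, and 2 of the 10 with 2 or more, which is not the order of the medians. Over all tested genes the corresponding shares were 8.21%, 16.2% and 22.5%, in the order of the medians.

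**Figure D5:**
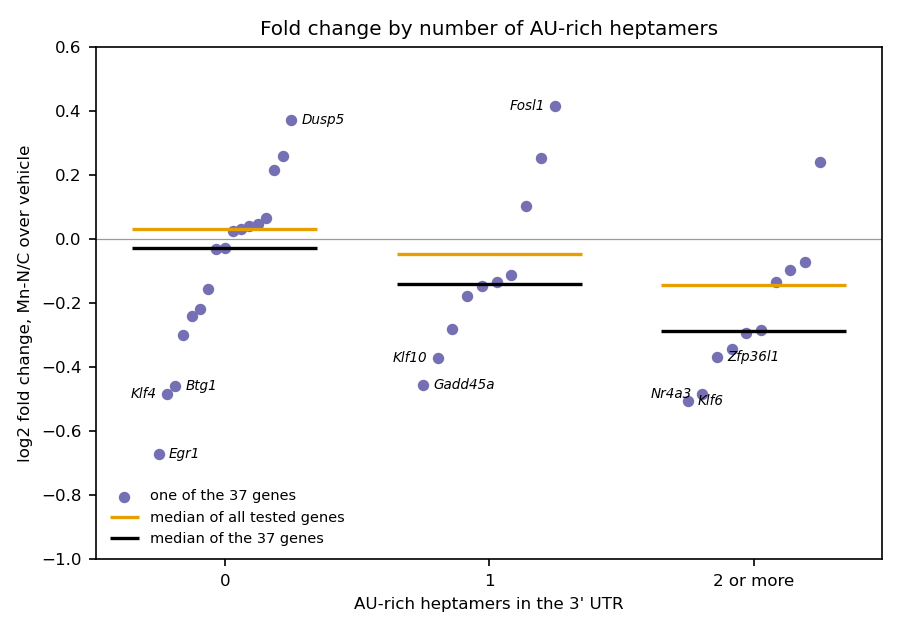
Log2 fold change of the 37 genes (points) by the number of TATTTAT heptamers in the 3' UTR, with the median of the 37 genes in black and of all tested genes in orange. Medians go down from 0 to 2 or more heptamers in both, and Egr1, Klf4 and Btg1 lie lowest among the genes with none.

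RefSeq promoter windows (GRCm38.p6, 250 bases before to 50 after the start) were used for 28 of the 37 genes, in 34 windows. The other genes were left out, Egr1 among them, so the motif shares below do not cover Egr1. Motifs were searched on both strands and may overlap. Shares are given by gene, since windows of a gene can overlap. The 27025 genes of the background were not limited to tested genes, and the part of GC content in these shares was not tested. The CArG box bound by SRF stood in a window of 3 of the 28 genes (10.7%: Dusp5, Egr2 and Zfp36) against 1.81% of all 27025 genes, and the CREB site TGACGTCA in 3 (10.7%: Btg2, Dusp1 and Maff) against 2.03%. The EGR site GCGGGGGCG or GCGTGGGCG stood in 8 genes (28.6%) against 3.93%, the GC box GGGCGG in 23 (82.1%) against 38.2%, and the AP-1 site TGACTCA in 0 (0%) against 5.95%. Of the 8 genes with an EGR site, the groups overlapped in 6 (Dusp2, Fosb, Fosl2, Klf2, Maff and Zfp36). They did not overlap in 2, near the share of 26.4% over all tested genes. These 2 were Klf4, with a lower mean after Mn-N/C, and Nr4a1, with a higher mean, and neither passed adjustment in edgeR. Their windows are shown with EGR sites and GC boxes in capitals, Klf4 at chr4:55532426-55532725 on the minus strand and Nr4a1 at chr15:101266596-101266895 on the plus strand.
Klf4: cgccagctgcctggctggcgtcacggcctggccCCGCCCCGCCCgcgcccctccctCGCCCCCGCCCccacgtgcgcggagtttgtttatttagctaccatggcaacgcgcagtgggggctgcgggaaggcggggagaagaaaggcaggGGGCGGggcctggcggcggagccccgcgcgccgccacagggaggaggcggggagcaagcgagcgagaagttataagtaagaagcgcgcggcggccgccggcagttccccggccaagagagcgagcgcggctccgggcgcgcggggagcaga
Nr4a1: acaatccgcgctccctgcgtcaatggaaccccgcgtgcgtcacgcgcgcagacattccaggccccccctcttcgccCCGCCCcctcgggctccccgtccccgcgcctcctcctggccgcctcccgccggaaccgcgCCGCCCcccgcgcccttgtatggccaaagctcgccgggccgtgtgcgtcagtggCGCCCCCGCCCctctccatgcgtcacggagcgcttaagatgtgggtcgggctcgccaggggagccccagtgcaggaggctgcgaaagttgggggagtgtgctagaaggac
Klf4 held 1 EGR site, whose first base lay at -194 from the start, and 4 GC boxes, and Nr4a1 held 1 EGR site at -60 and 3 GC boxes. These are matches of letters, and binding was not measured.

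Genes around the 37, from lists written from general knowledge, went both ways. The lists were chosen with earlier results of these data known, so their comparison with all genes is not independent. Their counts are to be read against the 9.82% of all tested genes that were higher and the 11.1% that were lower. Of 41 tested other immediate early and growth factor-induced genes, 8 had a lower and 3 a higher level (unadjusted p under 0.05 in edgeR), with a median log2 fold change of -0.04. The 3 with the smallest p were lower: Per1, a clock gene induced by glucocorticoid and cAMP (log2 fold change -0.91, standard error 0.191), Klf9, a glucocorticoid-induced KLF factor (-0.87, 0.196), and Nfil3, a basic leucine zipper repressor (-0.53, 0.124). Mcl1, a survival gene and the most abundant per length of that list, had a value of -0.13 (standard error 0.0627). Of 15 further MAPK feedback inhibitors 3 were lower and 2 higher, with Nf1, a RAS-GTPase activator, at -0.32 (standard error 0.0835) and the phosphatase genes Dusp9 at 0.53 (0.145) and Dusp14 at 0.52 (0.147). Of 31 upstream kinases and factors 9 were lower and 5 higher, with the coactivator Crebbp at -0.29 (standard error 0.076), the p38 kinase kinase Map2k3 at 0.27 (0.0773), the JNK gene Mapk9 at -0.38 (0.109) and the ERK1 gene Mapk3 at 0.05 (0.0794).

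The decay machinery on which the ZFP36 and BTG proteins act had more genes higher than lower. Of 52 tested genes of deadenylation, decapping and the exosome, 12 had a higher and 6 a lower level by the same measure. Over all tested genes 9.82% were higher and 11.1% lower. The groups did not overlap in 25 of the 52, where the share over all tested genes was 26.4%, and 29 had a higher mean. The median over these genes was 0.05 on the log2 scale. Hnrnpd, which encodes the AU-rich element binding protein AUF1, was at 0.37 (standard error 0.0781), the scavenger decapping enzyme Dcps at 0.38 (0.0957), the decapping-complex subunit Lsm4 at 0.34 (0.099), and Pabpc1, the poly(A) binding protein, at 0.06 (0.0689). Of 13 tested AU-rich mRNAs known as ZFP36 targets in mouse, outside the 37, 1 was higher and 2 lower, with Vegfa at -0.45 (standard error 0.152), Ccnd1 at 0.25 (0.0953) and Cdkn1a at -0.17 (0.0695). No gene of these 5 lists passed the adjusted threshold in edgeR, while DESeq2 called 8 higher (5.59%) and 13 lower (9.09%) of the 143 to which it gave an adjusted p, where its shares over all genes were 2.73% and 4.1%, with adjusted p-values of 0.00228 for Per1 and 0.00299 for Klf9.

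Markers of other cell types varied between libraries, and their part in the results above was not tested. Of 12 macrophage markers 10 had a higher mean in Mn-N/C-treated tumors, and their summed level was 1037 to 1329 CPM in vehicle- and 1193 to 1423 CPM in Mn-N/C-treated tumors. The mean was lower in 8 of 10 endothelial markers (Emcn and Cldn5 without overlap, unadjusted p = 0.0252 and 0.0496 in edgeR). It was also lower in 7 of 9 fibroblast markers (Dcn and Fap at 0.0181 and 0.0482, with a DESeq2 adjusted p of 0.0393 for Dcn). The same held for 5 of 5 adipocyte markers (Fabp4 and Cfd at an unadjusted p of 0.0448 and 0.0454 in edgeR). A higher mean was found in 4 of 4 smooth muscle, 7 of 8 skeletal muscle, 5 of 6 neutrophil and 4 of 7 T cell markers. Over all tested genes 49.8% had a lower mean, 11.1% were lower at an unadjusted p under 0.05 in edgeR and 12.1% were lower without overlap. The summed level of the endothelial markers was 148 to 229 and 136 to 236 CPM, and of the fibroblast markers 3832 to 6028 and 3504 to 8302 CPM. That of 6 neutrophil markers was 173 to 219.9 and 162 to 241 CPM, and of 7 T cell markers 5.73 to 16.9 and 8.49 to 18.5 CPM. Most of the neutrophil sum was Mmp9, with means of 189 and 205 CPM in vehicle- and Mn-N/C-treated tumors. S100a8 had means of 1.16 and 1.65 CPM, Retnlg 0.681 and 1.28, and Cxcr2 0.45 and 0.773. Smooth and skeletal muscle markers were highest in Mn-N/C replicate 2, at 238 and 707 CPM, against 50.1 to 81.6 and 10.9 to 231 CPM in the other libraries. Acta2, at 50.8, 124 and 51.3 CPM after Mn-N/C and 39.4, 40.8 and 28.0 CPM in the vehicle libraries, and Cnn1, at 1.35, 2.57 and 1.57 and at 0.106, 0.367 and 0.266 CPM, were higher in every Mn-N/C library (unadjusted p = 0.014 and 0.000563 in edgeR, both adjusted p = 0.182). Adipocyte markers were at 16.7 to 59.5 CPM in vehicle- and 16.2 to 23.9 CPM in Mn-N/C-treated tumors. Skin keratinocyte markers were at 138 to 198 and 189 to 207 CPM, and mast cell markers at 7.04 to 10.9 and 4.17 to 14.0 CPM. Most of the keratinocyte sum was Krt14, with means of 166 and 195 CPM, while Krt10 had 4.2 and 3.39 CPM. No B cell marker had enough reads to be tested, and of 7 markers of carcinoma epithelium Cdh1 was the only one that had (18.1 to 31.4 and 29.6 to 39.5 CPM), while Epcam had 2 to 18, Krt8 0 to 9 and Krt18 0 to 8 reads per library, so these defining markers of colon epithelium were near 0 in every tumor.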

How the data were processed

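Bulk RNA sequencing of MC38 tumors gave a table with 6 libraries. The deposited counts are the authors' whole-number reads per gene, not normalized. The FPKM values beside them were made by the authors and were used for levels between genes. HISAT2 2.0 and mm10 stand in the submitters' processing notes. How strand was handled, which program counted and with which annotation is not given in the sources used here, so overlapping and antisense genes cannot be told apart. Start and end equaled those of GENCODE M21 in 2.29% of 21850 shared genes, so no coordinates of the table are printed.

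Total counts per library were 14988588 to 18961134, and 3 counts, the limit a count of 0 allows, were 0.158 to 0.200 CPM (counting error only). Libraries of the same group differed by more than sampling noise. Counts were filtered with filterByExpr (12800 genes kept), scaled by TMM and tested with edgeR 4.0.16 (quasi-likelihood, group alone, Benjamini-Hochberg) in R 4.3.3, after tests on simulated data. The common biological coefficient of variation was 0.165. Alternatives were DESeq2 1.42.0, limma 3.58.1 (voom, and log2 FPKM), other filters and scaling, GC and length trends removed, a replicate block, and each library left out. GC content came from the longest GENCODE M21 transcript (12783 of 12800 genes). Heptamers were counted in the 3' UTR of the transcript with the longest coding sequence.

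All 37 genes are named. Values by library are given for the 2 genes with the smallest p in each family, every gene at an unadjusted p under 0.05 or without overlap, and the most abundant gene. Of other lists, up to 3 genes with the smallest p and the most abundant one were eligible. The 37 genes and all lists were chosen with earlier results of these data known.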

Additional observations from a re-analysis of the deposited data

How the results depend on the processing

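Of the 17 alternatives, DESeq2 called 686 genes and 5 of the 37, where edgeR called 0 and 0. Leaving out 1 library gave 0 to 583 called genes and 0 to 6 of the 37, with calls only without vehicle replicate 2. At an unadjusted p under 0.05, 2 of the 37 were higher, 1 with the GC trend removed, 1 with the replicate block and GC trend removed, and 1 to 4 with 1 library left out (1 without vehicle replicate 1, Mn-N/C replicate 1 or Mn-N/C replicate 3). The shares of all genes that were higher were 9.82%, 10.2%, 8.77% and 5.06% to 14.8%. The lower count of 8 was 5 to 12 with 1 library left out, where 5.63% to 14.3% of all genes were lower (10.8% to 29.1% in either direction). The median log2 fold change of -0.13 was -0.20 with the GC trend removed and -0.22 to -0.063 with 1 library left out (-0.063 without Mn-N/C replicate 3).

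Deviations of same-numbered libraries from their group means had r = -0.15, -0.01 and 0.12. With 3 libraries per group, these values cannot show whether same-numbered libraries shared a batch. With the replicate block 0 genes were called, 3 of the 37 had a higher and 10 a lower level (unadjusted p under 0.05, where 10.2% of all genes were higher and 13% lower), and the median log2 fold change was -0.14. Not every library correlated best with its own number.

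In 25 of the 37 genes no alternative changed the sign, and in 12 at least 1 did. With the GC trend removed, log2 fold changes turned to -0.0068 for Ier5, -0.022 for Gadd45b and -0.086 for Gadd45g, and with the block as well to -0.0070, -0.032 and -0.085. They turned to -0.071 for Gadd45g with the length trend removed, and under voom to -0.046 for Dusp2, -0.028 for Dusp6 and -0.061 for Gadd45b. The cause was not tested. With 1 library left out, log2 fold changes were -0.21 to 0.066 for Egr2, -0.0061 to 0.069 for Egr3, -0.0042 to 0.25 for Fosb, -0.21 to 0.050 for Ier3, -0.0069 to 0.12 for Ier5, -0.10 to 0.040 for Dusp4, -0.0016 to 0.087 for Dusp6, -0.997 to 0.019 for Nr4a3, -0.50 to 0.14 for Btg2, -0.10 to 0.26 for Gadd45b and -0.043 to 0.10 for Gadd45g. Depth limits Nr4a3 most, with 11 to 79 reads per library.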
